A study of Mus musculus with 9 samples.

Results

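The genes described here are 46 components of the DNA replication machinery, measured in hepatocellular carcinoma (HCC) and control liver of mice. They were chosen by function, but with earlier results of these data known, as the genes of 5 groups: the helicase (13 genes), the origin factors (11), the polymerases (7), the clamp and fork factors (10) and nucleotide synthesis (5). A probe set, the array's unit of measurement, was used where its annotation names 1 gene symbol, and for Pcna and Tk1, which have more than 1 such probe set, the one with the highest mean was taken. All 46 genes were measured, among 19938 genes in all. The study asked how liver tumours that arise under constitutive Notch activation differ in expression from liver without it. Total RNA was hybridised to Affymetrix Mouse Gene 1.0 ST arrays, 4 of control liver and 5 of HCC. The control livers are labelled healthy and came from monotransgenic Rosa26-lsl-NICD mice, which carry the Notch intracellular domain (NICD) behind a stop cassette and have no Cre. The tumours came from bitransgenic AFP-Cre/Rosa26-lsl-NICD mice, in which the alpha-fetoprotein promoter drives Cre, so every mouse of both groups carries the NICD allele. Both groups were 6 to 12 months old on a hybrid 129 x C57BL/6 background. The sources used here do not give sex, litter or the animal behind each array, so the p-values reflect only how much these 9 arrays vary, part of which may be technical.

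Replication starts where the origin recognition complex marks DNA and Cdc6 and Cdt1 load the MCM ring, made of Mcm2 to Mcm7, onto it. The Cdc7-Dbf4 kinase, Cdc45 and the GINS complex turn the loaded ring into an active helicase, polymerases and the Pcna clamp copy both strands, and ribonucleotide reductase and thymidylate enzymes supply the nucleotides. Most hepatocytes of an adult liver are quiescent, and many of these genes are transcribed by E2F factors when a cell enters S phase.

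Promoters of 8 members are shown so that the 3 largest differences (Mcm6, Prim1, Lig1), every other subunit of the MCM ring with an entry (Mcm2, Mcm3, Mcm5, Mcm7) and a helicase gene with a difference near or below 0 (Mcm10) can be read side by side. Lig1 has 3 windows in the table and Mcm7 has 2, and for these the window with E2F letters is printed. Each run covers 250 bases before to 50 bases after a RefSeq transcript start in GRCm38.p6, on the strand of the gene and 5′ to 3′. Capitals mark E2F letters (TTTCCCGC, TTTGGCGC, TTTCGCGC or TTTGCCGC), the CCAAT box (CCAAT) and the CHR element (TTTGAA), searched on both strands, with overlapping matches counted separately. The windows are chr1:128359656-128359955 (minus strand) for Mcm6, chr6:88898731-88899030 (minus) for Mcm2, chr1:20820263-20820562 (minus) for Mcm3, chr8:75109259-75109558 (plus) for Mcm5, chr5:138171834-138172133 (minus) for Mcm7, chr10:128014965-128015264 (plus) for Prim1, chr7:13278576-13278875 (plus) for Lig1 and chr2:5012742-5013041 (minus) for Mcm10.
Mcm6: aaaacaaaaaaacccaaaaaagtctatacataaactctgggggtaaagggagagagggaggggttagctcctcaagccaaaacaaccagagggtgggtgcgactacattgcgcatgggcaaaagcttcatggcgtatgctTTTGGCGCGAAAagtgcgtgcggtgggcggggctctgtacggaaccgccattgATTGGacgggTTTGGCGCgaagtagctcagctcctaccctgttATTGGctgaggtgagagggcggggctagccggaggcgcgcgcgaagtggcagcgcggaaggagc
Mcm2: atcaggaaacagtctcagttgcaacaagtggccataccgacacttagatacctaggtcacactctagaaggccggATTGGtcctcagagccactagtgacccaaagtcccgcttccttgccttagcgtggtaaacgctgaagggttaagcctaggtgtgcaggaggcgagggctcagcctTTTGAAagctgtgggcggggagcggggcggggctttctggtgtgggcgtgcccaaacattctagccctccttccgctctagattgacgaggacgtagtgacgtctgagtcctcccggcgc
Mcm3: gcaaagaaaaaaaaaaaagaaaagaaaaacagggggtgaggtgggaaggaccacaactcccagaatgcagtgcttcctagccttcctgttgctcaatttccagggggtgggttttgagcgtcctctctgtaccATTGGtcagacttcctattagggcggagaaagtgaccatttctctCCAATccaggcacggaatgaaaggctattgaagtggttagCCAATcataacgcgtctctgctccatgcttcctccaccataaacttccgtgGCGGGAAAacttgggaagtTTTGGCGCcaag
Mcm5: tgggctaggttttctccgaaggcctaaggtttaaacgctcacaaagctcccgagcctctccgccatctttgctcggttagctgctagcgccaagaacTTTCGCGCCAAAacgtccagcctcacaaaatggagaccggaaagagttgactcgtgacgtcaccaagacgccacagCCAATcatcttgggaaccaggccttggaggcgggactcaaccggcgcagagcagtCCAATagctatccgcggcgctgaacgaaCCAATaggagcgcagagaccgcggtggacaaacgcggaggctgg
Mcm7: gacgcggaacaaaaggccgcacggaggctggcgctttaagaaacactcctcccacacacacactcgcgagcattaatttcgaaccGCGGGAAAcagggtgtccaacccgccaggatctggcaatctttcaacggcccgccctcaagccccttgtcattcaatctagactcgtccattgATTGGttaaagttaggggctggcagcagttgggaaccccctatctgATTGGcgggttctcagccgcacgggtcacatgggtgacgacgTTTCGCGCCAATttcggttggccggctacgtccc
Prim1: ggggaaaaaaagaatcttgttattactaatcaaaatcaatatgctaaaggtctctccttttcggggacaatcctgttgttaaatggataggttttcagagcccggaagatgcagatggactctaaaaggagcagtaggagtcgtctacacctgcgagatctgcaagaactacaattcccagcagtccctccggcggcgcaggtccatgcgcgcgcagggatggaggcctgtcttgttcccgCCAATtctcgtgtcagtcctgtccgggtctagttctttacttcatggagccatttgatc
Lig1: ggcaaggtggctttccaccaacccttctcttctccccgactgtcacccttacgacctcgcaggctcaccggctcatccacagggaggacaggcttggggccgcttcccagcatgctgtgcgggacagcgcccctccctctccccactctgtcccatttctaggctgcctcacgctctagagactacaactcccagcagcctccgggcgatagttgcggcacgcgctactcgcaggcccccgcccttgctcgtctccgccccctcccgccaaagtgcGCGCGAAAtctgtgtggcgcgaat
Mcm10: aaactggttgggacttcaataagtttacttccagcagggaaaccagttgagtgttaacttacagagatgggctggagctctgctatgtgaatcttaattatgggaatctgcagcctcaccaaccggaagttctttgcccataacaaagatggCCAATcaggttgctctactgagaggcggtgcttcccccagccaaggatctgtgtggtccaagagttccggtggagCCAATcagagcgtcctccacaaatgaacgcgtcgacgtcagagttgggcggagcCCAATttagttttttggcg

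The Mcm6 window holds 3 matches to the E2F letters, which begin at -110, -106 and -47 from the start, the first pair overlapping, and 2 CCAAT boxes. Mcm3 and Mcm5 hold 2 E2F matches and 3 CCAAT boxes each, and in Mcm7 the E2F match at 17 runs into a CCAAT box at 24. The other Mcm7 window holds 1 CCAAT box and no E2F match. The printed Lig1 window has 1 E2F match, at 27, and no CCAAT box, and the other Lig1 windows hold none of the 3 motifs. E2F letters are absent from the windows of Mcm2 (1 CCAAT box and 1 CHR element), Prim1 (1 CCAAT box) and Mcm10 (3 CCAAT boxes). The Mcm10 window ends in TTTGGCG, 1 base short of the E2F letters TTTGGCGC, and the base after it was not read. Its lack of a match therefore depends on where the window ends. RefSeq windows were held for 38 of the 46 members, 46 windows in all. E2F letters were in 15 of these (32.6%) and in 744 of the 32851 windows of all genes (2.26%). A CCAAT box was in 24 (52.2%, against 37.4% of all windows), both together in 9 (19.6%, against 0.962%) and a CHR element in 7 (15.2%, against 17.9%). Among the groups, E2F letters were in 6 of 10 helicase windows, 4 of 14 origin windows, 3 of 5 polymerase windows, 2 of 12 clamp windows and 0 of 5 nucleotide windows, and all 10 helicase windows held a CCAAT box. These counts describe letters only. Of the members not printed that also hold E2F letters, Gins3, Pold1, Cdt1 and Orc1 had log2 differences of 0.10, 0.09, 0.13 and 0.26. Orc3 had a negative one, -0.23. Mcm8, Cdc6, Pola1, Rfc3 and Pole2 had 0.58, 0.83, 1.09, 1.10 and 1.35. Mcm4, Gins1, Gins2, Gins4, Gmnn, Prim2, Pole and Rfc2 had no entry in the table.

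Replication genes were mostly higher in the tumours. Of the 46, 43 had a positive log2 difference (HCC minus control), and 15 were at least 2-fold higher. Mcm6, Lig1, Rrm1, Gins2 and Orc2 rose past the threshold, an adjusted p of 0.05 by limma with Benjamini-Hochberg adjustment over all 19938 genes, and none fell. The 5 rises are 10.9% of the members, beside 0.858% of all genes called higher and 0.16% called lower. A positive difference was found in 42.5% of all genes and one of at least 2-fold in 1.95%. At an unadjusted p under 0.05, 34 members were higher and none lower, beside 10.5% of all genes higher. The median difference of the members was 0.63 (1.54-fold) and that of all genes -0.03. For 26 members (56.5%), every HCC array lay above every control array, which held for 5.63% of all genes. The remaining 41 members did not pass the threshold, and for many of them the tumours differed widely from each other, as the values per array show.

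**Figure D1:**
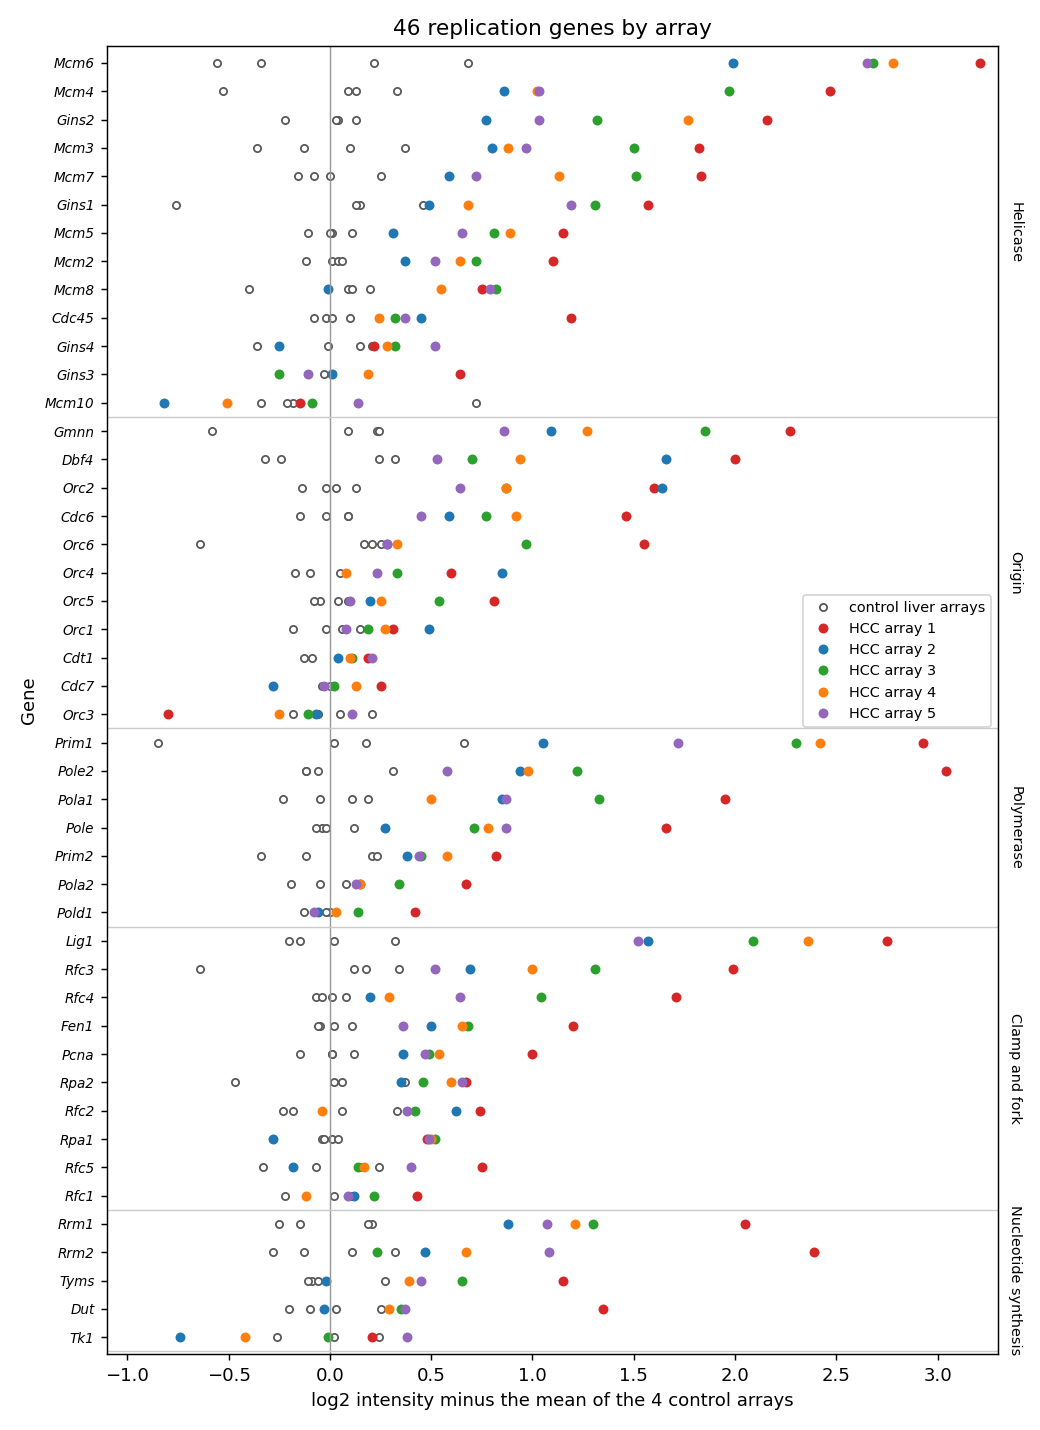
Log2 intensity of each of the 46 genes on every array, minus the mean of the 4 control arrays; open circles are control arrays, coloured points the 5 HCC arrays, and genes are grouped by function. HCC array 1 (red) is the highest HCC array for 36 genes, and the points of Mcm6 and Lig1 leave the widest gaps between the groups.

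Array values are given below as log2 intensity, in the order control arrays 1 to 4 and then HCC arrays 1 to 5, and group values as mean ± SD (n = 4 control, n = 5 HCC). Intensities of different genes come from different probes and cannot be set against each other as levels, so only differences between groups are compared between genes. The arrays hold bulk tissue, in which fewer cells of a type and less RNA per cell cannot be told apart.

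In the helicase group 12 of 13 genes had positive differences, with a median of 0.76, and all 6 subunits of the MCM ring were among them. Mcm6 (probe set 10357436) read 6.88, 7.34, 6.32 and 6.10 in control liver and 9.87, 8.65, 9.34, 9.44 and 9.31 in HCC. The lowest tumour lay 1.31 above the highest control. Its mean rose from 6.66 ± 0.56 to 9.32 ± 0.44, a log2 change of 2.66 (SE 0.29, 6.33-fold, adjusted p = 0.0102), the largest difference of the 46 genes. Mcm4 read 5.88, 6.54, 6.50 and 6.74 in control liver and 8.88, 7.27, 8.38, 7.43 and 7.44 in HCC. The groups did not overlap, but HCC arrays 1 and 3 stood above the other tumours, and the difference of 1.47 (SE 0.35, 2.77-fold) had an adjusted p of 0.0785. Mcm3 differed by 1.20 (adjusted p = 0.053), Mcm7 by 1.15 (0.0635), Mcm5 by 0.76 (0.0555) and Mcm2 by 0.67 (0.0558). All 6 subunits thus had every tumour above every control, with a median difference of 1.18 (2.26-fold), while 1 of them passed the threshold. The SDs of Mcm2 (0.08 in control liver and 0.28 in HCC) and Mcm5 (0.09 and 0.31) were smaller than those of Mcm3 (0.31 and 0.44). Mcm6 did not pass without control array 3 (2.55, adjusted p = 0.0554).

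**Figure D2:**
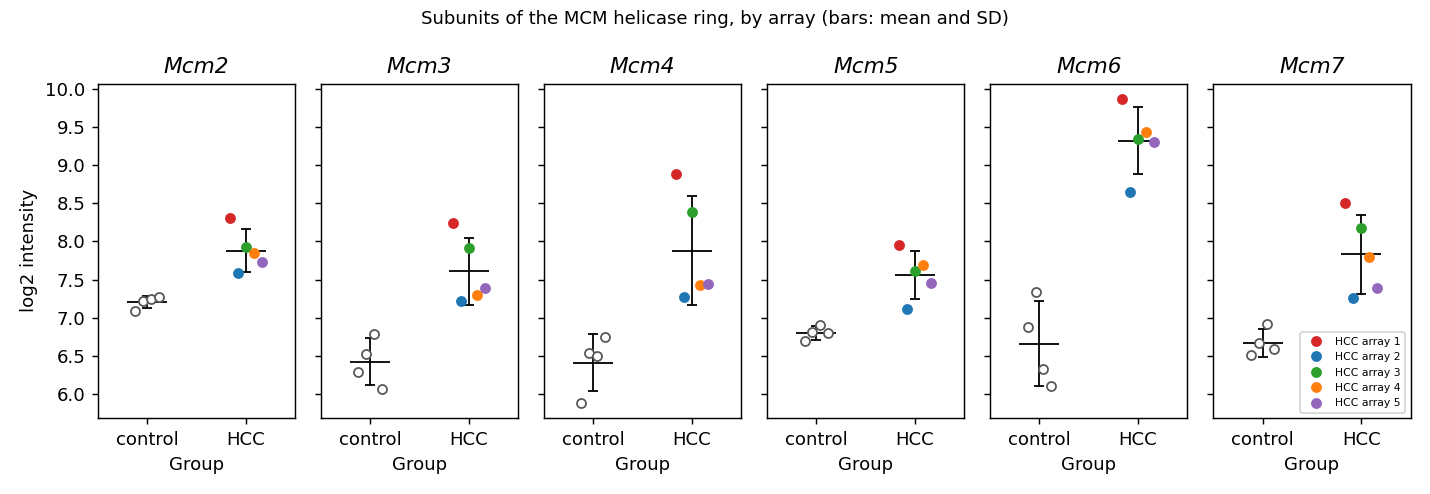
Log2 intensity of the 6 subunits of the MCM ring on each array, 1 panel per gene, with horizontal bars at the group mean and vertical bars of 1 SD (n = 4 control, n = 5 HCC). Every HCC array lies above every control array in all 6 panels, HCC array 1 is highest and HCC array 2 lowest in each, and levels are not comparable between panels.

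GINS, which joins Cdc45 and the ring in the active helicase, was uneven. Gins2 (probe set 10582190) read 7.18, 7.53, 7.44 and 7.43 in control liver and 9.56, 8.17, 8.72, 9.17 and 8.43 in HCC. The 4 controls were close together and all 5 tumours above them, and the mean rose from 7.40 ± 0.15 to 8.81 ± 0.56, a change of 1.41 (SE 0.26, 2.67-fold, adjusted p = 0.0478). This call was near the threshold: it was lost without any single control array and without HCC array 3 or 4 (adjusted p 0.0885 to 0.146), after quantile normalisation (0.0658) and with the Xist level as a covariate (0.0613). Gins1 differed by 1.05 (adjusted p = 0.106) with no overlap of the groups, and Gins4 by 0.22 (0.482) with overlap. Gins3 read 6.14, 6.10, 6.14 and 6.14 in control liver and 6.77, 6.14, 5.88, 6.32 and 6.02 in HCC. Tumours lay on both sides of the controls, and its difference was 0.10 (SE 0.16, adjusted p = 0.762, 95% interval -0.26 to 0.46). The mean of Gins3 was below the median of all genes, and 4 arrays had the same value. Cdc45 differed by 0.51 (adjusted p = 0.168), with HCC array 1 at 8.13 and the other tumours between 7.18 and 7.39. Mcm8, a helicase related to the ring subunits that acts in recombination repair, differed by 0.58 (adjusted p = 0.15). Mcm10, which assists helicase activation, was the 1 helicase gene with a negative difference, -0.28 (SE 0.26, adjusted p = 0.556). Its control values ran from 7.47 to 8.53 and its tumour values from 6.99 to 7.95, so the groups overlapped, and without control array 4, the highest control, the difference was -0.04 (adjusted p = 0.94).

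The origin factors had a median difference of 0.41 (0.68 among genes with a mean above the median) and held both large differences and values near 0. Orc2, a subunit of the origin recognition complex (probe set 10354845), read 6.91, 7.18, 7.08 and 7.03 in control liver and 8.65, 8.69, 7.92, 7.92 and 7.69 in HCC. HCC arrays 1 and 2 were highest, and no tumour came within 0.51 of the highest control. Its mean rose from 7.05 ± 0.11 to 8.17 ± 0.46, a change of 1.12 (SE 0.21, 2.18-fold, adjusted p = 0.0497). The call was lost without any single control array or any one of HCC arrays 1 to 4 (adjusted p 0.0704 to 0.151) and with trend and robust variance estimates (0.0512). The other recognition subunits differed by 0.68 (Orc6, adjusted p = 0.245), 0.41 (Orc4, 0.199), 0.38 (Orc5, 0.184), 0.26 (Orc1, 0.199) and -0.23 (Orc3, 0.487). Orc3 was lowest on HCC array 1 (8.72), the array on which most other members were highest, and between 9.27 and 9.63 on the other tumours, and without that array its difference was -0.08 (adjusted p = 0.729). Over the 6 subunits the median difference was 0.40.

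The loading and licensing factors of the origin group also differed among themselves. Gmnn, geminin, which binds and inhibits Cdt1, read 7.11, 7.92, 7.78 and 7.93 in control liver and 9.96, 8.78, 9.54, 8.96 and 8.55 in HCC. All tumours exceeded all controls, and control array 1 was 0.67 below the next control. The difference was 1.47 (SE 0.30, 2.78-fold, adjusted p = 0.0559). Dbf4, the activating subunit of the Cdc7 kinase, read 6.00, 6.56, 6.08 and 6.64 in control liver and 8.32, 7.98, 7.02, 7.26 and 6.85 in HCC. HCC arrays 1 and 2 were highest, as for Orc2, and the difference was 1.17 (SE 0.31, adjusted p = 0.103). Cdc7 itself read 5.23, 5.21, 5.23 and 5.17 in control liver and 5.46, 4.93, 5.23, 5.34 and 5.18 in HCC. Its groups overlapped, with a difference of 0.02 (SE 0.10, adjusted p = 0.934, 95% interval -0.21 to 0.25), beside a larger one for its partner subunit. Of the factors that load the ring, Cdc6 differed by 0.83 (adjusted p = 0.0657) with no overlap, and Cdt1 by 0.13 (0.344) with overlap. Cdc7, Cdc6, Cdt1 and Orc1 each had a mean below the median of all genes, as had Mcm8 in the helicase group and Prim2, Pole and Pole2 among the polymerases. Cdc7 and Cdt1 each had the same value on 3 arrays. Whether low signal hid a change in these genes was not tested.

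All 7 polymerase genes had positive differences, with a median of 0.86, but none passed the threshold. Prim1, the catalytic subunit of the primase that starts each new strand, read 6.39, 7.42, 7.90 and 7.26 in control liver and 10.17, 8.29, 9.54, 9.66 and 8.96 in HCC. Its difference of 2.08 (SE 0.40, 4.22-fold) was the second of the 46 in size, and the spread in both groups (SD 0.63 and 0.72) left an adjusted p of 0.0513. Without HCC array 2, its lowest tumour, the difference was 2.34 (adjusted p = 0.0453), and without HCC array 5 it was 2.17 (0.0302). Pole2, an accessory subunit of polymerase epsilon, read 5.67, 5.73, 6.10 and 5.67 in control liver and 8.83, 6.73, 7.01, 6.77 and 6.37 in HCC. HCC array 1 lay 1.83 above the next tumour, and the difference of 1.35 (SE 0.44, adjusted p = 0.145) became 0.93 (adjusted p = 0.0479) without it. Pola1, the catalytic subunit of polymerase alpha, read 7.58, 7.82, 7.74 and 7.40 in control liver and 9.58, 8.48, 8.96, 8.13 and 8.50 in HCC. The groups did not overlap and the difference was 1.09 (SE 0.26, 2.14-fold, adjusted p = 0.0809). Pole, the catalytic subunit of polymerase epsilon, differed by 0.86 (adjusted p = 0.104), Prim2, the large primase subunit, by 0.54 (0.0981) and Pola2, the accessory subunit of polymerase alpha, by 0.29 (0.243). For Pola2 the groups overlapped and 3 arrays had the same value. Pold1, the catalytic subunit of polymerase delta, read 6.75, 6.88, 6.86 and 7.02 in control liver and 7.30, 6.82, 7.02, 6.91 and 6.80 in HCC. HCC array 1 was the highest of all 9 arrays and the others were mixed, and the difference was 0.09 (SE 0.11, adjusted p = 0.66, 95% interval -0.16 to 0.34).

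**Figure D3:**
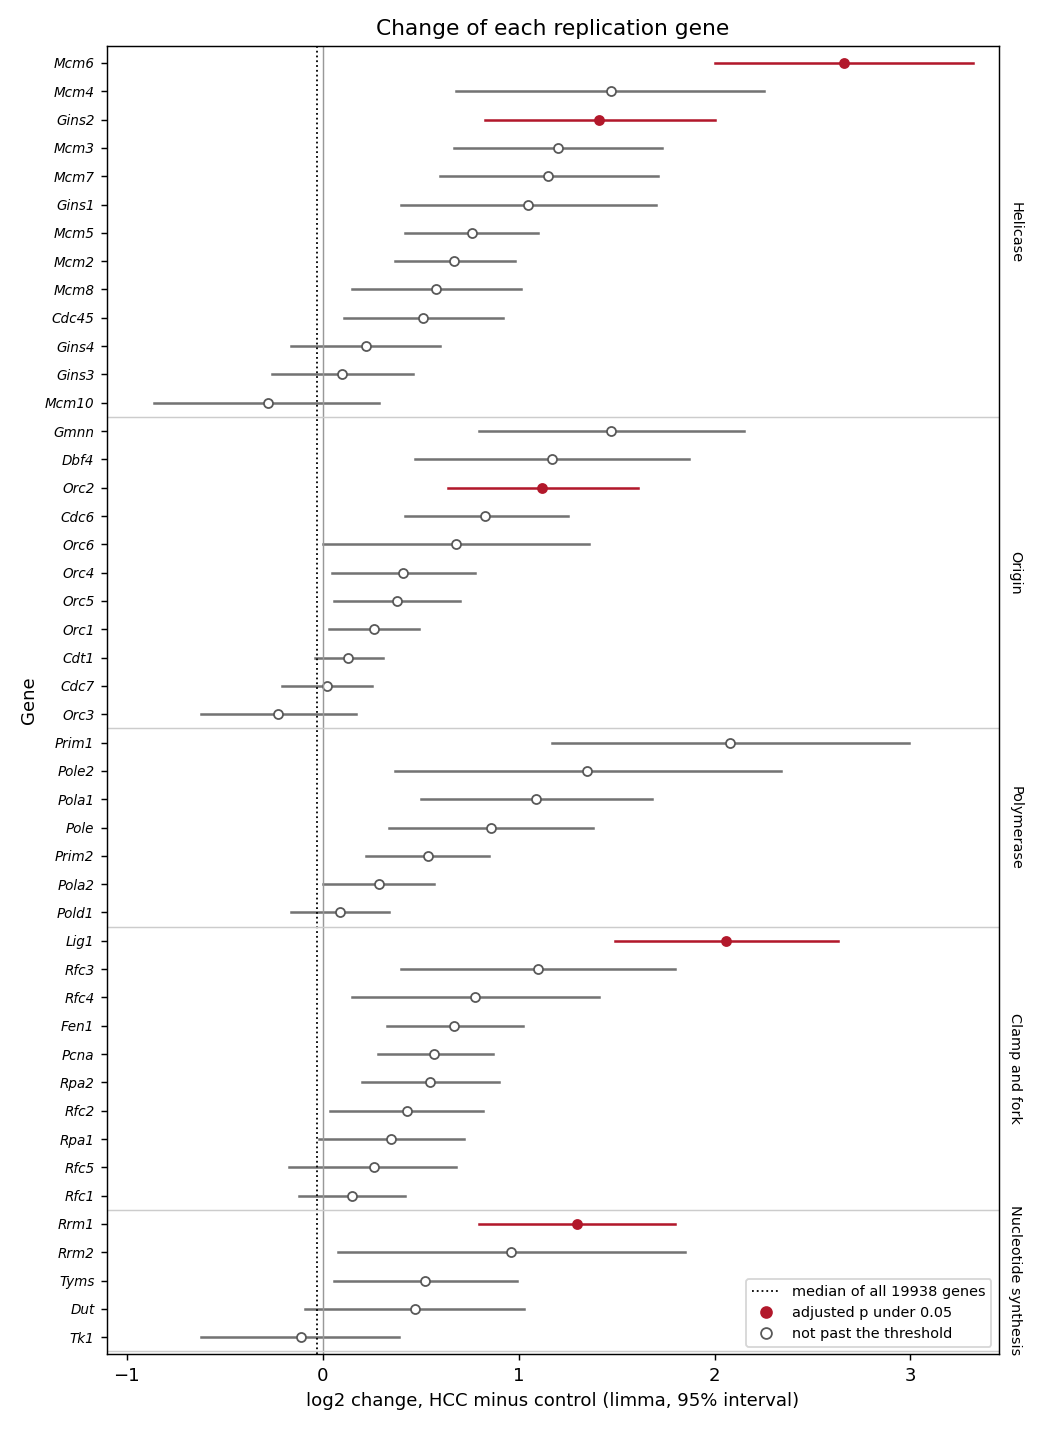
Log2 difference of each gene, HCC minus control, with its 95% interval from limma; filled red points passed an adjusted p of 0.05, open points did not, and the dotted line is the median of all genes at -0.03. The 5 red points are Mcm6, Gins2, Orc2, Lig1 and Rrm1, and intervals of Mcm10, Orc3, Cdc7, Pold1 and Tk1 are among those that cross 0.

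Among the clamp and fork factors all 10 differences were positive, with a median of 0.56. Lig1, the ligase that joins the fragments of the lagging strand (probe set 10550102), read 6.75, 7.22, 6.92 and 6.70 in control liver and 9.65, 8.47, 8.99, 9.26 and 8.42 in HCC. The lowest tumour lay 1.20 above the highest control. Its mean rose from 6.90 ± 0.24 to 8.96 ± 0.52, a change of 2.06 (SE 0.25, 4.17-fold, adjusted p = 0.0177). With any single control array left out the change stayed between 1.99 and 2.17 and the adjusted p between 0.0509 and 0.0856. Fen1, the flap endonuclease that trims the same fragments before ligation, differed by 0.67 (adjusted p = 0.0717) and Pcna, the sliding clamp, by 0.57 (0.0695). Both had every tumour above every control, and Pcna was highest on HCC array 1 (12.02) with the other tumours between 11.38 and 11.56.

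The clamp loader RFC had a median difference of 0.43 over its 5 subunits, and none passed. Rfc3 read 7.64, 8.46, 8.62 and 8.40 in control liver and 10.27, 8.97, 9.59, 9.28 and 8.80 in HCC, a difference of 1.10 (SE 0.31, adjusted p = 0.113). Rfc4 read 6.74, 6.89, 6.77 and 6.82 in control liver and 8.52, 7.01, 7.85, 7.10 and 7.45 in HCC, a difference of 0.78 (SE 0.28, adjusted p = 0.171). For both genes the groups were apart and HCC arrays 1 and 3 were the highest tumours. Rfc1, the large subunit, read 8.54, 8.78, 8.87 and 8.87 in control liver and 9.19, 8.88, 8.98, 8.64 and 8.85 in HCC. Its groups overlapped and its difference was 0.15 (SE 0.12, adjusted p = 0.506). Rfc2 and Rfc5, further small subunits, differed by 0.43 (adjusted p = 0.212) and 0.26 (0.465). Of the single-strand binding protein, Rpa2 differed by 0.55 (adjusted p = 0.113) and Rpa1 by 0.35 (0.269). Rpa1 lay between 8.23 and 8.27 on 4 tumours, above all controls (7.71 to 7.79), and at 7.47 on HCC array 2, below them. Without that array its difference was 0.50 (adjusted p = 0.0198).

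In nucleotide synthesis, 4 of 5 genes had positive differences, with a median of 0.52, and the groups were apart for 1 of them. Rrm1, the large subunit of ribonucleotide reductase (probe set 10555695), read 7.02, 7.48, 7.46 and 7.12 in control liver and 9.32, 8.15, 8.57, 8.48 and 8.34 in HCC. All tumours exceeded all controls, and the mean rose from 7.27 ± 0.24 to 8.57 ± 0.45, a change of 1.30 (SE 0.22, 2.46-fold, adjusted p = 0.0409). The call was lost without any single control array and without HCC array 3 or 4 (adjusted p 0.0829 to 0.138), and after quantile normalisation (0.0502). Rrm2, the small subunit of the same enzyme, read 6.87, 7.26, 7.47 and 7.02 in control liver and 9.54, 7.62, 7.38, 7.82 and 8.23 in HCC. HCC array 3 fell within the controls and HCC array 1 lay 1.31 above the next tumour, and the difference was 0.96 (SE 0.39, adjusted p = 0.216), or 0.61 (0.196) without HCC array 1. Tyms, thymidylate synthase, read 7.67, 7.65, 8.03 and 7.70 in control liver and 8.91, 7.74, 8.41, 8.15 and 8.21 in HCC. HCC array 2 was below the highest control, and the difference was 0.52 (SE 0.21, adjusted p = 0.207). Dut, which removes dUTP, differed by 0.47 (adjusted p = 0.316), or 0.25 (0.369) without HCC array 1. Tk1, the thymidine kinase of the salvage pathway, read 9.09, 8.84, 8.87 and 8.59 in control liver and 9.06, 8.11, 8.84, 8.43 and 9.23 in HCC. Tumours lay on both sides of the controls, with a difference of -0.11 (SE 0.22, adjusted p = 0.802, 95% interval -0.62 to 0.39). The second probe set of Tk1, with a lower mean, differed by -0.44 (SE 0.26, adjusted p = 0.37 in a limma fit of every probe set).

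The tumours also differed from each other, in a similar way for much of the set. HCC array 1 was the highest tumour for 36 of 46 genes (78.3%, against 24.5% of all genes), and HCC array 2 the lowest for 25 (54.3%, against 24.2%). The SD was wider in HCC than in control liver for 40 members (87% against 67.9% of all genes), with a median SD of 0.39 in HCC and 0.18 in control liver. Averaged over the 46 genes, the difference from the control mean was 1.27, 0.44, 0.77, 0.63 and 0.59 on HCC arrays 1 to 5, and -0.19, 0.07, 0.09 and 0.03 on control arrays 1 to 4. The low control was array 1, the lowest control for 28 members (60.9%, against 34.2% of all genes). The MCM ring averaged 1.93, 0.82, 1.53, 1.22 and 1.09 on the tumours. Nucleotide synthesis averaged 1.43, 0.11, 0.50, 0.43 and 0.67, so that on HCC array 2 it was close to control liver while the ring was not. The origin group averaged 0.93, 0.59, 0.57, 0.45 and 0.31, with HCC array 5 the lowest. The difference between groups of genes was not tested.

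**Figure D4:**
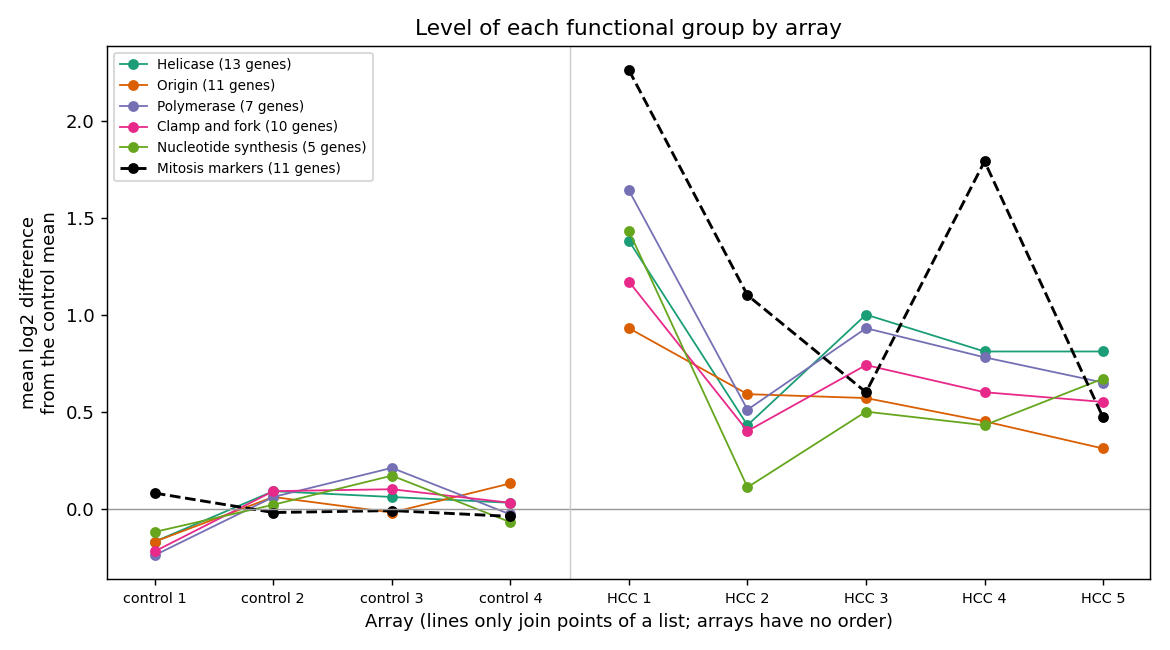
Mean log2 difference from the control mean on each array, for the 5 groups of replication genes (solid lines) and for mitosis markers (dashed line); lines only join points of 1 list. All 5 groups are highest on HCC array 1, and the mitosis markers are high on HCC array 4 (1.79) and low on HCC array 3 (0.60), unlike the helicase genes (0.81 and 1.00).

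Other genes of dividing cells moved with the set on some arrays. Of 12 mitosis markers, 11 were measured and had positive differences, with a median of 1.27, and Top2a alone passed the threshold (adjusted p = 0.0409). HCC array 1 was the highest tumour for all 11, and the SD was wider in HCC for all 11. A wider SD in HCC also held for all 8 hepatocyte and all 8 macrophage markers described next, and for 2 of 5 erythroid markers. The mitosis markers averaged 2.26, 1.10, 0.60, 1.79 and 0.47 on HCC arrays 1 to 5. HCC array 3 was thus high among the tumours for the replication genes (0.77) and low for the mitosis markers (0.60). Summed linear intensity of the mitosis markers was 955 to 1042 on the control arrays and 1397 to 5627 on the HCC arrays, and that of the 46 replication genes 9138 to 11211 and 13622 to 24304.

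Markers of cell types also differed between arrays. The 8 hepatocyte markers all had negative differences, with a median of -0.26 and none past the threshold, a summed intensity of 68051 to 72966 in control liver and 46532 to 68434 in HCC, and the lowest average (-0.73) on HCC array 1. At an unadjusted p under 0.05, 4 of the 8 were lower, beside 9.85% of all genes. Cps1 (-0.83, adjusted p = 0.106), Tat (-0.88, 0.111) and Fah (-0.70, 0.193) had every tumour below every control, while Alb (-0.24) and Ttr (-0.08) overlapped. Every tumour lay below every control in 769 of all 19938 genes. The 5 cholangiocyte markers measured, of 7 listed, had positive differences, with Sox9 past the threshold (adjusted p = 0.0228), a summed intensity of 444 to 482 in control liver and 905 to 3557 in HCC, and the highest average on HCC array 1 (2.44). Cftr was 10.85 on that array and 5.57 to 6.82 on the other tumours. Sox9, Epcam and Cftr had every tumour above every control, while Krt19 (0.75, adjusted p = 0.281) and Krt7 (0.31, 0.394) overlapped. On HCC array 1 Krt7 (7.00) lay within the controls (6.83 to 7.30). Of 8 macrophage markers 7 had negative differences and none passed. They averaged -1.80 on HCC array 1 and 0.86 on HCC array 2, the tumours at the top and bottom of the replication order, with a summed intensity of 2983 to 6689 in control liver and 1412 to 9011 in HCC. None of the 9 lymphocyte markers measured, of 10 listed, passed, with a median of -0.13 and a summed intensity of 679 to 752 in control liver and 571 to 859 in HCC. None of the 6 endothelial, 7 stellate and 5 erythroid markers measured passed. At an unadjusted p under 0.05, 2 endothelial, 1 stellate and 1 erythroid marker were lower, beside 9.85% of all genes. Of the stellate markers, 2 were higher at that p, beside 10.5% of all genes. The endothelial markers Clec4g (-1.58, adjusted p = 0.223) and Kdr (-0.64, 0.113) had every tumour below every control. Of the 6 endothelial markers 3 had positive differences, and the 6 averaged -1.31 on HCC array 1. Xist, transcribed from the inactive X chromosome, was 11.76, 10.68, 10.85 and 4.83 on the control arrays and 11.14, 11.13, 4.98, 5.10 and 4.92 on the HCC arrays. It was thus high on control arrays 1 to 3 and HCC arrays 1 and 2, and low on the other arrays. Orc2 and Dbf4 were also highest among the tumours on HCC arrays 1 and 2. The part of these markers in the differences of the replication genes was not tested.

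A wider list of 57 further replication genes, also drawn up by function with earlier results of these data known, had 56 measured. Of these, 48 had positive differences, with a median of 0.30, and 1 rose past the threshold while none fell (1 of 56, against the 0.858% of all genes above). Wdhd1, which tethers polymerase alpha to the helicase, read 6.41, 6.31, 6.32 and 6.43 in control liver and 8.12, 7.43, 7.66, 7.81 and 7.16 in HCC. Its mean rose from 6.37 ± 0.06 to 7.64 ± 0.37, a change of 1.27 (SE 0.17, 2.41-fold, adjusted p = 0.0205). The call was lost without any single control array and without HCC array 3 or 4 (adjusted p 0.0539 to 0.0954). Chek1, the kinase of the replication checkpoint, differed by 1.78 (adjusted p = 0.0615), Dscc1, of an alternative clamp loader, by 1.74 (0.106) and Ccna2, the S-phase cyclin A, by 1.63 (0.106), each with every tumour above every control. Dscc1 was 8.95 on HCC array 1 and between 6.22 and 7.33 on the other tumours.

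By role, the 8 further chromatin genes had a median of 0.59, the 14 fork genes 0.48, the 9 initiation genes 0.44, the 10 control genes 0.27, the 5 polymerase genes 0.15 and the 10 nucleotide genes 0.13. At an unadjusted p under 0.05, 26 of the 56 were higher and 2 lower, beside 10.5% and 9.85% of all genes. The lower pair were Pole4, a small subunit of polymerase epsilon (-0.64, adjusted p = 0.125), and Shmt1, a folate enzyme of thymidylate supply (-0.93, adjusted p = 0.114). Both had every tumour below every control, as had 769 of all 19938 genes. E2f1, a factor that binds E2F letters, lay between 6.32 and 6.46 in control liver and 6.45 and 6.53 in HCC, a difference of 0.08 (adjusted p = 0.479). For E2f1, 4 arrays shared a value.

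How many members passed depended on single arrays. Leaving out control arrays 1 to 4 in turn left 1, 1, 0 and 1 members called higher, and the share of all genes called higher was 0.0752%, 0.0652%, 0.0502% and 0.155%. In the fit without control array 3, in which limma called no member, 28 had an unadjusted p under 0.05, all higher, beside 8.22% of all genes higher. Leaving out HCC arrays 1 to 5 in turn gave 8, 7, 2, 2 and 16 members, with 0.577%, 0.331%, 0.246%, 0.171% and 3.16% of all genes. Array weights, which let limma count noisier arrays less, gave 18 members and 2.52% of all genes. The 16 members called without HCC array 5 included all 6 subunits of the ring. In every one of the 17 alternative fits no member was called lower, and the median difference of the members ran from 0.53 to 0.72.

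**Figure D5:**
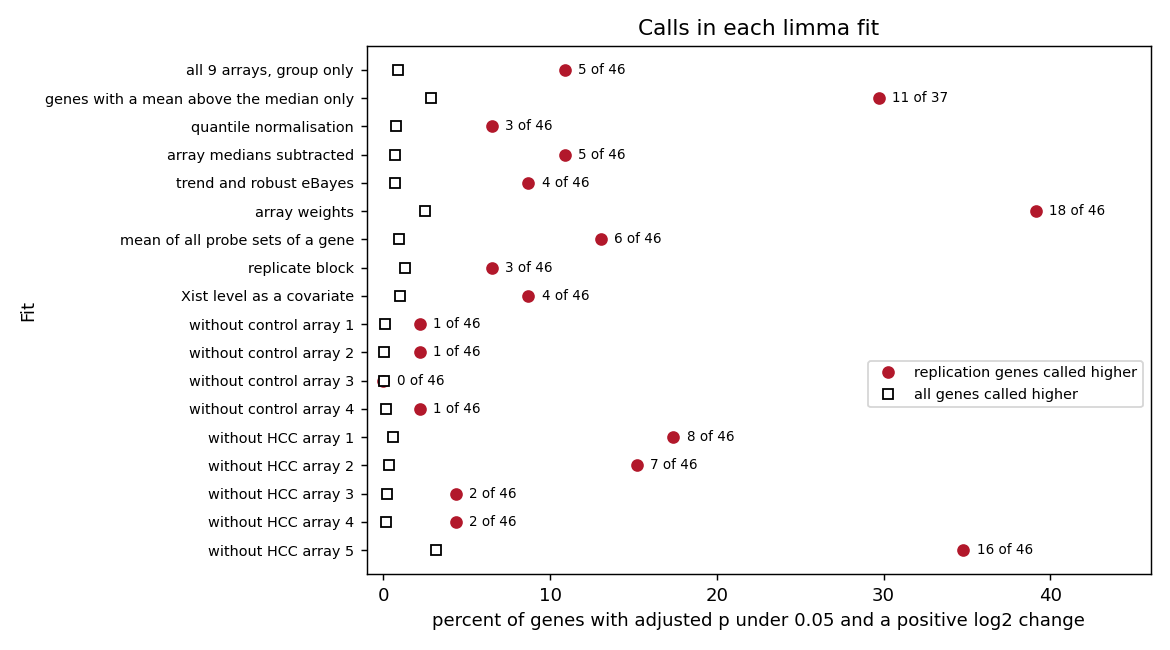
Percent of the replication genes (red points, with counts) and of all genes (open squares) called higher by limma at an adjusted p under 0.05, in the fit of all 9 arrays and in 17 alternatives. The red point lies right of the square in all fits but that without control array 3, where no replication gene was called.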

How the data were processed

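The deposited values are probe set intensities made by the authors with RMA, per the submitters' processing notes, and GenePattern and R were used, per the series' design text. Their versions are not given in the sources used here. RMA normalises arrays to each other, so a change shared by most genes would not show. The values, 3.91 to 21468 with array medians of 91.5 to 101.3, are linear, and log2 was taken with no pseudocount. Of 35512 probe sets, 21789 had 1 symbol in the platform annotation, 1621 several and 12102 none. Symbols of all 46 members matched RefSeq by Entrez identifier. Arrays correlated at 0.982 to 0.994 among controls and 0.947 to 0.981 among HCC, and none were identical. The number of arrays limits the precision.

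Groups were compared with limma 3.58.1 in R 4.3.3 (lmFit, eBayes; group only, two-sided), with Benjamini-Hochberg adjustment over 19938 genes and a threshold of 0.05, and the fit was tested on simulated data. Lists are described by counts and medians, with no test. Shown in full are members past the threshold and, per group, the 3 with the largest absolute difference and the 1 with the smallest. Members and lists were chosen with earlier results of these data known. Cell type markers were fixed lists. The alternatives were an expression filter, quantile normalisation, median centring, trend and robust variance, array weights, mean of probe sets, replicate block, Xist covariate and each array left out. Replicate numbers were taken not to pair the samples. Python 3.11.15, numpy 2.4.6, pandas 2.3.3 and matplotlib 3.10.9 were used. Scanner files and scan dates were not used here.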

Additional observations from a re-analysis of the deposited data

Results flagged for a closer look

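Each member was examined in both groups for an array that stands far from the rest, measured as its gap to the nearest array over the range of the group (Dixon's 95% critical value). Of 92 sets of values, 10 held such an array, and chance gives about 1 in 20. HCC array 1 stood high for 4 genes: Cdc45 (8.13, others 7.18 to 7.39), Pole2 (8.83, others 6.37 to 7.01), Pcna (12.02, others 11.38 to 11.56) and Dut (8.64, others 7.26 to 7.66). HCC array 2 stood low for Rpa1 (7.47, others 8.23 to 8.27). Control array 3 stood high for Pole2 (6.10, others 5.67 to 5.73) and Tyms (8.03, others 7.65 to 7.70). Control array 4 stood high for Mcm10 (8.53, others 7.47 to 7.63). Control array 1 stood low for Orc6 (7.00, others 7.81 to 7.89). Control array 2 stood low for Gins3 (6.10, others 6.14), a gap of under 0.05 in a gene with almost no spread in control liver.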

How the results depend on the processing

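The median difference of the 46 members stayed between 0.53 and 0.72 in all 17 alternatives, and no member was called lower in any. Counts of calls were less stable. Members called higher, 5 with all arrays, were 11 among above-median genes (37 members left), 3 after quantile normalisation, 18 with array weights and 0 to 16 with 1 array left out. All genes called higher, 171 with all arrays, were 285, 503 (array weights) and 10 to 631, and genes called lower, 32, were 93, 49 after quantile normalisation, 246 and 0 to 556. Other replication genes called higher, 1, were 3 among above-median genes, 7 with array weights and 0 to 9 with 1 array left out, and those called lower, 0, were 0 to 1. The origin median was 0.68 among above-median genes, where fewer origin genes were tested, and the order of the groups changed there: helicase 1.05, polymerase 0.69, clamp 0.56 and nucleotide 0.52. With the Xist level as a covariate, 4 members were called higher (Mcm6, Orc2, Lig1 and Rrm1), beside 201 of all genes. The causes of these differences between settings were not tested.

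With the replicate block, 3 members were called higher (Mcm6, Orc2 and Lig1, with adjusted p-values of 0.0664 for Gins2 and 0.071 for Rrm1), 259 genes higher and 220 lower, and 1 other replication gene lower. Deviations of same-numbered arrays from their group means correlated at r of -0.004, 0.324, -0.029 and -0.083. The value of 0.324, for control array 2 and HCC array 2, was the highest of all pairs. The other same-numbered arrays did not deviate together, so the number was not taken as a pairing.

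For the 20 members shown in full, 338 values were computed, the second probe set of Tk1 included, of which 288 kept their direction and side of the threshold, 31 fell short of it, 13 newly passed it and 6 changed sign, all in genes with differences near 0. Gins3 went from 0.10 to -3.7e-04 with array weights and to between -0.04 and 0.18 with 1 array left out. Cdc7 went from 0.02 to -1.7e-03 with array medians subtracted and to between -0.04 and 0.09 with 1 array left out (-0.01 without HCC array 4). Tk1 went from -0.11 to between -0.24 and 0.04 with 1 array left out, and to -0.28 with the mean of its probe sets.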

Other observations

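Some members have a second probe set or repeated values. The second probe set of Pcna differed by 0.58 (adjusted p = 0.0696), close to the one used. That of Tk1 differed by -0.44 (SE 0.26, adjusted p = 0.37), with the same sign as the one used. In these 2 genes each probe set was tested in a limma fit of every probe set. Identical values on at least 2 arrays were listed for 6 of the 46 members (13%) and for 47.4% of all genes. Gins3 has the same value on 4 arrays, and Cdc7, Cdt1 and Pola2 on 3. RefSeq windows were held for 45 of the other replication genes, and 12 of their 52 windows (23.1%) had E2F letters, beside 32.6% of the members' windows.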
